A study of Homo sapiens with 11 samples.

Results

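Paclitaxel-treated MDA-MB231 cells were set against MDA-MB231 cells given the vehicle DMSO, 1 RNA-seq library a side, chosen by their titles from the 11 libraries of the study. MDA-MB231 is a human breast cancer line labelled as basal type. The treated cells received 0.2 µM paclitaxel for 8 h, and the control is DMSO replicate 1, whose title gives no time. A second MDA-MB231 library labelled DMSO, replicate 2, has 8hr in its title and is described as untreated. For paclitaxel it was therefore used as a second view of the vehicle state. It was also the control for the MDA-MB231 library given methyl methanesulfonate, listed next. The remaining libraries are MDA-MB231 cells given doxorubicin (1 µM), etoposide (20 µM) or methyl methanesulfonate (MMS, at 40 µg/mL), all for 8 h, and U2OS osteosarcoma cells given DMSO or the same 4 drugs at the same doses and time. The study set the alkylating agent MMS beside classical chemotherapeutics, of which paclitaxel is the microtubule drug. Both lines are established cultures grown in the same medium. The labels do not state whether the libraries stem from separate cultures.

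Microtubules are hollow fibres built from pairs of alpha- and beta-tubulin, and the mitotic spindle is made of them. Paclitaxel binds beta-tubulin inside the fibre, stops it from shrinking and so holds dividing cells in mitosis under the spindle checkpoint. Cells also sense how much free tubulin they hold: when it is plentiful, the TTC5 protein recognises the first residues of new tubulin chains on the ribosome and the tubulin mRNA is degraded.

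Reads assigned to genes came to 28168939 with paclitaxel, 25506368 in DMSO replicate 1 and 16774156 in DMSO replicate 2, within the range of 16774156 to 31588683 over the 11 libraries. Of 12 markers of a basal mesenchymal breast cancer line, 11 reached 5 CPM (read counts scaled to a common library size), and their summed level was 8148 CPM with paclitaxel against 8751 and 8519 CPM in the DMSO libraries. Of 10 luminal markers 6 reached 5 CPM, and their sum was 618 CPM with paclitaxel and 616 and 676 CPM with DMSO. KRT8, KRT19 and KRT18 were at 233, 183 and 176 CPM with paclitaxel, while the defining receptors ESR1 and PGR had 0 and 1 reads. ELF3, a luminal transcription factor, was at 2.91 and 2.9 CPM with DMSO and 6.33 CPM with paclitaxel (log2 ratio 1.00). Of the blood and immune markers 2 of 10 reached 5 CPM: CD68, at 133 CPM with paclitaxel and 126 and 115 CPM in the DMSO libraries, and CD14, at 14.1 CPM with paclitaxel and 7.2 and 2.46 CPM. PTPRC, the pan-leukocyte marker, had 11 reads with paclitaxel and 9 and 8 reads with DMSO. The summed blood and immune list was 149 CPM with paclitaxel and 134 and 119 CPM with DMSO. In the endothelial list 2 of 6 reached 5 CPM, and the sum was 26.5 CPM with paclitaxel against 18.5 and 18.4 CPM. They were PECAM1, with 309 reads with paclitaxel and 120 and 52 with DMSO, and KDR, at 12.5 CPM with paclitaxel and 12.002 and 13.1 CPM with DMSO. CDH5 had 77 reads with paclitaxel and 38 and 21 with DMSO, and VWF had 1 read with paclitaxel.

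The differences between the paclitaxel and DMSO libraries were small, and more genes passed the thresholds upwards than downwards. A log2 ratio was taken for each of the 10832 genes whose larger CPM was at least 5, with 0.5 CPM added to each value, which pulls the ratios of low genes toward 0. Of these genes 51 (0.471%) were at least 2-fold higher with paclitaxel and 1 (0.00923%) was at least 2-fold lower, the microRNA host gene MIR17HG, named here because it stood alone. At 1.5-fold, 198 genes (1.83%) were higher and 43 (0.397%) lower. The median ratio was -0.01, the standard deviation over genes 0.23, and 86.5% of genes lay within 0.3 log2 units of equality. With 1 library a side there is no replicate check and no test, and the intervals given below cover counting error only.

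The 2 DMSO libraries show how far vehicle libraries of this line can lie apart. Between them, 279 genes (2.58%) were at least 1.5-fold higher in replicate 2 and 478 (4.41%) lower, both more than between paclitaxel and DMSO replicate 1. At 2-fold, 42 genes (0.388%) were higher and 111 (1.02%) lower, beside 51 and 1 with paclitaxel. All these counts are over the 10832 genes kept by their paclitaxel and DMSO replicate 1 levels. A gene reaching 5 CPM with paclitaxel alone was therefore counted, and one reaching it in replicate 2 alone was not. The counts of higher genes, 42 and 51, thus cannot be ranked against each other. The standard deviation of their ratios was 0.33. Of the 198 genes higher with paclitaxel, 191 were also above DMSO replicate 2, and 152 (1.4% of all genes) were at least 1.5-fold above both, 37 of them (0.342%) at least 2-fold. Of the 43 lower genes, 42 were also below replicate 2, and 25 (0.231%) were at least 1.5-fold below both. For 45 of the 198 higher genes, DMSO replicate 2 was at least 1.5-fold below replicate 1, and for 23 at least 1.5-fold above it. Ratios against each DMSO library share the paclitaxel library, so this count is a description and not a repeat. The share of all genes above or below both DMSO libraries by any amount was not counted. Counts of that kind, here and in the lists below, are therefore given without it.

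**Figure D1:**
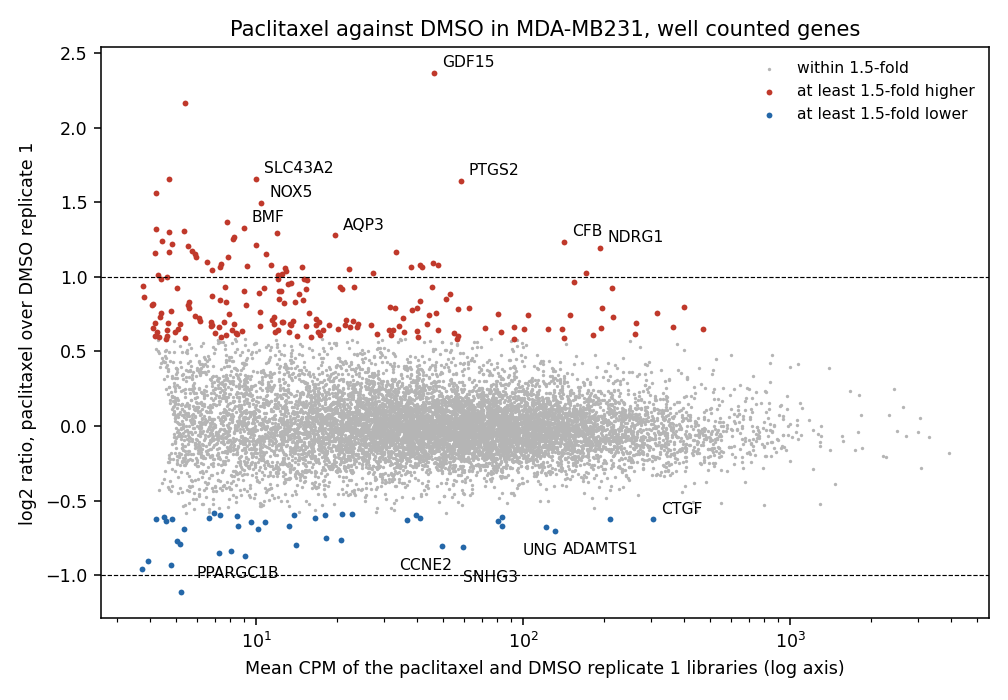
Each point is 1 of 10832 well counted genes: the horizontal log axis is the mean CPM of the paclitaxel and DMSO replicate 1 libraries, the vertical axis the log2 ratio of paclitaxel over DMSO. Red points are the 198 genes at least 1.5-fold higher and blue points the 43 at least 1.5-fold lower. Dashed lines mark 2-fold, and GDF15 stands highest at 2.36.

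GDF15, a secreted stress cytokine of the TGF-beta family, had the highest ratio. It had 375 reads (14.8 CPM) in DMSO replicate 1, 12.4 CPM in DMSO replicate 2 and 2206 reads (78.0 CPM) with paclitaxel. The log2 ratio was 2.36 (95% exact binomial interval 2.24 to 2.56), 5.15 times the level in replicate 1, and 2.60 against DMSO replicate 2. The DMSO libraries lay close together and the paclitaxel library far above them. In U2OS cells the same gene was at 22.8 CPM with DMSO and 28.8 CPM with paclitaxel, a ratio of 0.33.

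PTGS2, which encodes the prostaglandin-making enzyme COX-2, had the third highest ratio among genes with a larger CPM of at least 10, after GDF15 and SLC43A2. It was at 28.1 and 49.2 CPM in the DMSO libraries and 88.8 CPM with paclitaxel, a ratio of 1.64 (1.54 to 1.78) against replicate 1 and 0.85 against replicate 2. The paclitaxel level was above both DMSO levels, which themselves differed. NDRG1, a gene induced by hypoxia and metal loss, was at 117.7 and 59.4 CPM with DMSO and 269.9 CPM with paclitaxel (1.19, 1.14 to 1.26). CFB, complement factor B, was at 84.8 and 44.8 CPM with DMSO and 200.1 CPM with paclitaxel (1.23, 1.17 to 1.31). For NDRG1 and CFB the DMSO libraries differed from each other as well, with replicate 2 the lower.

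The other genes among the 15 highest ratios with a larger CPM of at least 10 had lower counts. SLC43A2, an amino acid transporter, was at 4.56 and 6.24 CPM with DMSO and 15.5 CPM with paclitaxel (1.66). NOX5, a superoxide-making NADPH oxidase, was at 5.23 and 6.62 CPM with DMSO and 15.7 CPM with paclitaxel (ratio 1.495). BMF, a pro-apoptotic member of the BCL2 family that has been linked to the cytoskeleton, was at 4.92 and 7.44 CPM with DMSO and 13.1 CPM with paclitaxel (1.33). In each of these the paclitaxel library stood above both DMSO libraries. ITGA10, AQP3, AKR1C3, CMKLR1, APOBEC3G, GBP2, LTBP3 and PECAM1 completed the set, with ratios between 1.13 and 1.29. AQP3, a water and glycerol channel, had nearly equal DMSO levels of 11.3 and 11.4 CPM and 28.2 CPM with paclitaxel. GBP2, an interferon-inducible GTPase, was at 20.5 and 16.4 CPM with DMSO and 46.5 CPM with paclitaxel. LTBP3 was the exception: its paclitaxel level of 15.2 CPM lay above replicate 1 (6.57 CPM) and just below replicate 2 (16.3 CPM). HLA-G, chosen after its values were seen, had the second highest ratio of all kept genes, 2.17, with 42 reads in DMSO replicate 1 and 259 with paclitaxel, and its close resemblance to other HLA genes makes its counts uncertain.

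Among genes with a larger CPM of at least 10, the 15 lowest ratios were smaller in size, between -0.84 and -0.63. PPARGC1B, a coactivator of mitochondrial genes, was at 10.5 and 20.4 CPM with DMSO and 5.66 CPM with paclitaxel (-0.84). CCNE2, the S-phase cyclin E2, was at 63.4 and 73.2 CPM with DMSO and 36.0 CPM with paclitaxel (-0.81, interval -0.93 to -0.70). ADAMTS1, a secreted metalloprotease, was at 163 and 356 CPM with DMSO and 100.3 CPM with paclitaxel (-0.70). For each of them the paclitaxel library was below both DMSO libraries. UNG, the uracil-DNA glycosylase, MCM6, a subunit of the replicative helicase, and FAM111B were also among them. CTGF, a secreted matrix protein and YAP target, was at 373 and 455 CPM with DMSO and 241 CPM with paclitaxel (-0.63). SNAI2, a transcription factor of mesenchymal cells, was at 44.6 and 66.0 CPM with DMSO and 28.6 CPM with paclitaxel (-0.63). SNHG3 and SNHG12, which host small nucleolar RNAs, had ratios of -0.81 and -0.75 against replicate 1 and of -0.38 and -0.31 against replicate 2. PDCD1LG2, an immune checkpoint ligand, was at 12.6 CPM in replicate 1 but at 7.69 CPM in replicate 2 and 7.64 CPM with paclitaxel, so its low ratio rests on DMSO replicate 1.

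**Figure D2:**
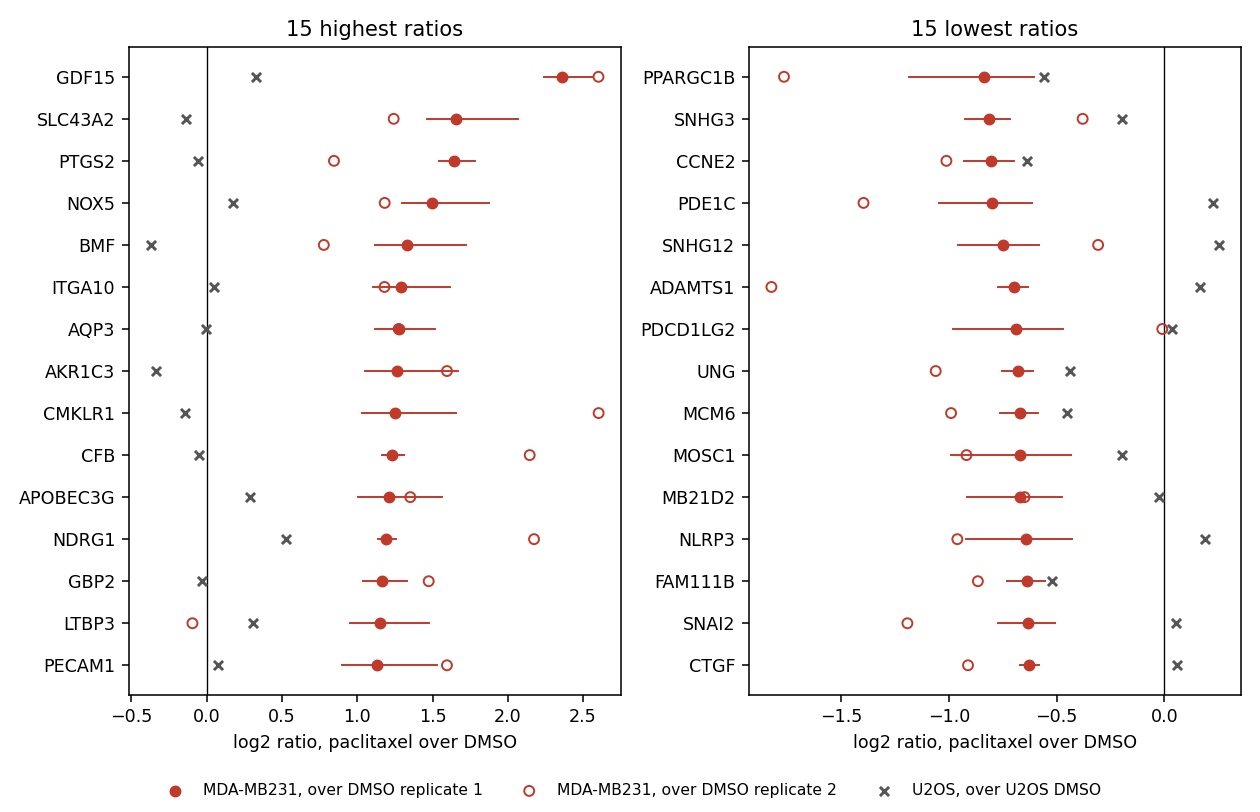
Log2 ratios of paclitaxel over DMSO (horizontal axes) for the 15 highest and 15 lowest genes with a larger CPM of at least 10. Filled red points use MDA-MB231 DMSO replicate 1 with 95% exact binomial intervals (counting error only), open red points DMSO replicate 2, and crosses U2OS. LTBP3 changes sign with replicate 2 (-0.09), and the crosses for CCNE2, UNG, MCM6 and FAM111B lie on the same side as the MDA-MB231 points.

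The tubulin genes, which encode the drug's target, differed from each other. Of 19 alpha- and beta-tubulin genes 9 passed the minimum of 5 CPM, and 1 of them, TUBA1A, was at least 1.5-fold higher, beside 1.83% of all genes. None was 1.5-fold lower, beside 0.397% of all genes. Of the ratios 6 were above 0, beside 48.2% of all genes, and 3 below, and the median was 0.15. The other 10 stayed under the minimum, with TUBB1 the best counted of them at 58 reads with paclitaxel and 54 in DMSO replicate 1. The first codons of these mRNAs are shown because tubulin autoregulation reads the peptide they encode. Each line gives the first 30 coding bases from GENCODE release 29 transcripts (GRCh38), 5′ to 3′, with codons 2 to 4 in capitals, and TUBG1, a gamma-tubulin, is added for contrast. TUBB4B appears in the count tables under its older symbol TUBB2C.
TUBA1A: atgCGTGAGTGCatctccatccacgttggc
TUBA4A: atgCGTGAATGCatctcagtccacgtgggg
TUBB: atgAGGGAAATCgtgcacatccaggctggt
TUBB2A: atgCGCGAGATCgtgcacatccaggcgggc
TUBB3: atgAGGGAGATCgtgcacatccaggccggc
TUBB4B: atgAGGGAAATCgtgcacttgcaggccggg
TUBB6: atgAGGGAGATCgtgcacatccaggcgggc
TUBG1: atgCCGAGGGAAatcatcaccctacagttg

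TUBA1A, TUBA1B and TUBA1C share all 30 of these bases, and their ratios nevertheless spread from 0.64 to -0.25. TUBA1A was at 37.2 CPM in DMSO replicate 1, 27.9 CPM in replicate 2 and 58.4 CPM with paclitaxel, a ratio of 0.64 (0.54 to 0.77). It stood above both DMSO libraries. TUBA1B was at 776 and 803 CPM with DMSO and 756 CPM with paclitaxel (-0.04). TUBA1C was at 565 and 543 CPM with DMSO and 476 CPM with paclitaxel (-0.25, interval -0.28 to -0.21). Reads placed in more than 1 of these near-identical genes were left out of the counts, so the levels of these genes are uncertain.

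Among the beta-tubulins, TUBB3, the class found in neurons and in many tumours, was at 62.3 and 68.3 CPM with DMSO and 84.2 CPM with paclitaxel (0.43, interval 0.34 to 0.53). TUBB, the main beta-tubulin of dividing cells, was at 3381 and 2792 CPM with DMSO and 3211 CPM with paclitaxel (-0.07), between the DMSO libraries. TUBB2C (TUBB4B) was at 734 and 778 CPM with DMSO and 816 CPM with paclitaxel (0.15). TUBB3 and TUBB2C lay above both DMSO libraries by different margins. TUBB6, TUBA4A and TUBB2A had ratios of 0.17, 0.20 and 0.10 against replicate 1, and TUBB6 and TUBA4A were below replicate 2 (-0.23 and -0.32). TUBB2A was at 27.7 CPM with paclitaxel against 25.8 and 21.9 CPM with DMSO, and its interval, -0.05 to 0.26, includes 0.

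In U2OS cells all 11 alpha- and beta-tubulin genes that passed the minimum there had ratios above 0, with a median of 0.29, where the median of all U2OS genes was -0.03. TUBA1A was at 51.6 CPM with DMSO and 102 CPM with paclitaxel in U2OS (0.98). TUBB, TUBA1B and TUBA1C had U2OS ratios of 0.16, 0.10 and 0.13. The difference between the lines has no test, with 1 library a side in each. The gamma-, delta- and epsilon-tubulins, which serve centrosomes and cilia, ranged from -0.13 to 0.18 in MDA-MB231. All 4 were within 1.5-fold, as were 10591 of all 10832 genes kept.

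**Figure D3:**
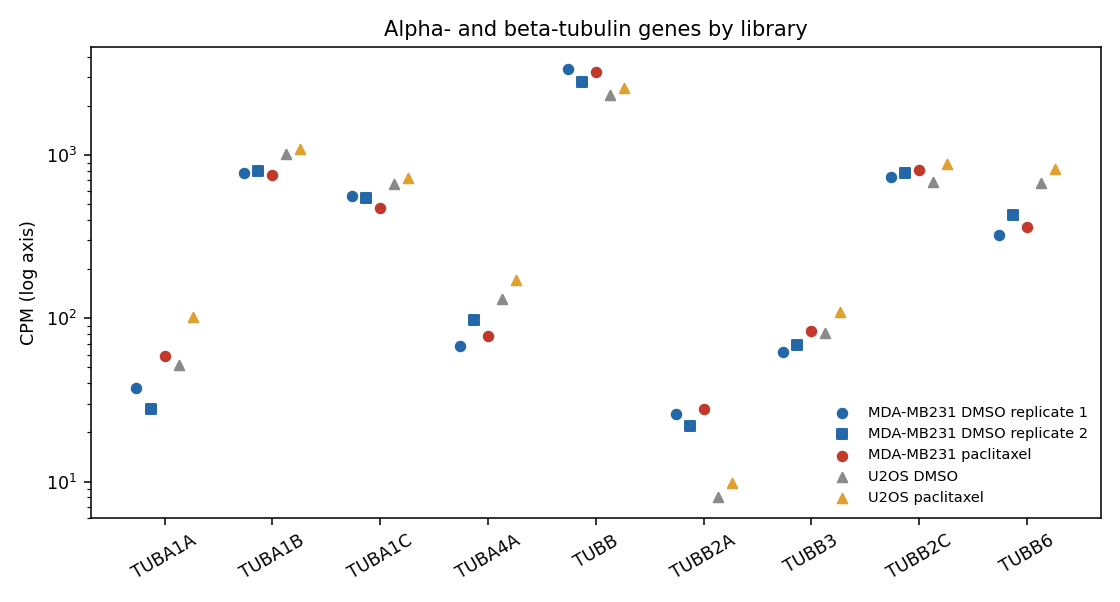
CPM (vertical log axis) of the 9 alpha- and beta-tubulin genes kept, in the 2 MDA-MB231 DMSO libraries, the MDA-MB231 paclitaxel library and the 2 matching U2OS libraries. TUBA1A shows the widest gap on the log axis between the paclitaxel point and the DMSO points among these 9 genes (58.4 against 37.2 and 27.9 CPM in MDA-MB231, 102 against 51.6 CPM in U2OS).

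The proteins that fold tubulin and build or modify microtubules had no member past 1.5-fold, where 1.83% of all genes were higher and 0.397% lower. For lists of 13 to 25 kept genes this is near those shares. Of 22 tubulin-folding genes, the CCT chaperonin, the prefoldins and the TBC cofactors, 20 were below 0 and 2 above, with a median of -0.14, beside 51.8% of all genes below 0. CCT8, a chaperonin subunit, was at 429 and 473 CPM with DMSO and 363 CPM with paclitaxel (-0.24). PFDN2, a prefoldin, was at 99.5 and 109.9 CPM with DMSO and 81.8 CPM with paclitaxel (-0.28). Of the 22 genes 15 were below both DMSO libraries. TTC5, the autoregulation factor, was at 12.5 and 12.2 CPM with DMSO and 12.02 CPM with paclitaxel. The 13 kept tubulin-modifying enzymes had a median of 0.00 and the 25 microtubule regulators a median of -0.00. Among the regulators, STMN3, a stathmin that binds free tubulin, was highest (0.46) and FIGN, a microtubule-severing enzyme, lowest (-0.38). The 20 genes of the gamma-tubulin ring and its recruiters had a median of -0.05.

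Genes of G2 and mitosis were slightly higher as a group. Of 54 members 46 (against 48.2% of all genes) had ratios above 0 and 8 below, the median was 0.21, and 42 were above both DMSO libraries. None reached 1.5-fold, where 1.83% of all genes did. CCNB1, the mitotic cyclin B1, was at 449 and 434 CPM with DMSO and 573 CPM with paclitaxel (0.35). PLK1, the polo-like mitotic kinase, was at 201 and 203 CPM with DMSO and 249.7 CPM with paclitaxel (0.31). CDC20, which activates the anaphase-promoting complex, was at 312 and 322 CPM with DMSO and 372 CPM with paclitaxel (0.25). For these 3 genes the DMSO libraries lay close together and paclitaxel stood above both.

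The highest members were G2E3 (0.57), AURKA (0.55), CENPA (0.54), PSRC1 (0.46) and KIF18A (0.44). AURKA, the spindle pole kinase, was at 306 and 292 CPM with DMSO and 447 CPM with paclitaxel (interval 0.51 to 0.59). CENPA, the centromeric histone, was at 45.8 and 35.8 CPM with DMSO and 66.8 CPM with paclitaxel. PSRC1, a spindle protein, was at 53.9 and 47.1 CPM with DMSO and 74.3 CPM with paclitaxel. All 3 were above both DMSO libraries. The lowest members were BUB3 (-0.30), CDK1 (-0.18), TOP2A (-0.15), AURKB (-0.14) and NUSAP1 (-0.14). CDK1, the mitotic kinase itself, was at 292 and 222 CPM with DMSO and 257 CPM with paclitaxel, between the DMSO libraries.

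Many mitotic genes carry in their promoters the CHR element, through which the DREAM and MuvB complexes act. It was searched as TTTGAA or TTCGAA on both strands in RefSeq promoters (GRCh38.p14), from 250 bases before to 50 after the start, which matched 8786 of the 10832 genes. The element stood in 32 of 45 G2 and mitosis promoters (71.1%) and in 10.9% of all. CENPA and PSRC1, both among the highest of the list, show it just before the start, at positions -18 and -29, written in capitals below. They are printed as examples of that placement. The promoter of G2E3, the highest member, held a match after the start, at position 4, and that of CCNB1 held none. Neither of these is printed. The CENPA window is chr2:26785806-26786105 on the plus strand and the PSRC1 window chr1:109283096-109283395 on the minus strand.
CENPA: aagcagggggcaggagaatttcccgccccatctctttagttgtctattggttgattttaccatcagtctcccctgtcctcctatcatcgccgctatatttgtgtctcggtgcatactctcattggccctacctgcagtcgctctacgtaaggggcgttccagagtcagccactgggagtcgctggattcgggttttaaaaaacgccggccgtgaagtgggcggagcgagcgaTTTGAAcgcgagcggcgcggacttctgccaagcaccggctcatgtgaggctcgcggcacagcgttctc
PSRC1: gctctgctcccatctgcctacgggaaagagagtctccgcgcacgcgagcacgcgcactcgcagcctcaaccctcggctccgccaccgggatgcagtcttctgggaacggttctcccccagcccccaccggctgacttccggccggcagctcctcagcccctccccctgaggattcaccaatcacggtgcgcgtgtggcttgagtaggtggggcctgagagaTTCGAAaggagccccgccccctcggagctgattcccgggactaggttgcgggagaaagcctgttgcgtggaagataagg

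The ratios of genes with and without a match to the searched forms lay close together. The 32 G2 and mitosis genes with a match had a median ratio of 0.21 and the 13 without a match 0.24. Other forms of the element were not searched, so the genes without a match may still hold it. The 930 genes that hold a match outside the list had a median of -0.00, beside -0.01 for the 8786 genes with a promoter. A match is a description of letters, not of binding.

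Genes of the G1/S transition and DNA replication were lower as a group. Of 50 members 48 (against 51.8% of all genes) had ratios below 0 and 2 above, with a median of -0.28, and 43 were below both DMSO libraries. Of them 5 were at least 1.5-fold lower, where 0.397% of all genes were: CCNE2, UNG, MCM6, CCNE1 and E2F2. UNG was at 150.4 and 196 CPM with DMSO and 93.7 CPM with paclitaxel (-0.68, interval -0.75 to -0.61). MCM6 was at 103 and 128 CPM with DMSO and 64.4 CPM with paclitaxel (-0.67, interval -0.76 to -0.59). CCNE1, cyclin E1, was at 20.1 and 17.7 CPM with DMSO and 12.98 CPM with paclitaxel (-0.62). CCNE2, UNG and MCM6 were 1.5-fold below both DMSO libraries, while CCNE1 and E2F2 were below replicate 2 by 0.44 and 0.43 log2 units. The highest members were DBF4 (0.20), LIG1 (0.02), TK1 (-0.03), GINS4 (-0.06) and RRM2 (-0.09). TK1, thymidine kinase, was at 179.7 and 185 CPM with DMSO and 177 CPM with paclitaxel.

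Homologous recombination and Fanconi genes, many of which peak in S phase, had 32 of 33 ratios below 0, beside 51.8% of all genes. Their median was -0.13, and none was past 1.5-fold, where 1.83% of all genes were higher and 0.397% lower. RAD51D (-0.48), BLM (-0.47) and EXO1 (-0.40) were the lowest, and RAD51C (0.05) was the exception. BLM, the Bloom helicase, was at 30.1 and 39.1 CPM with DMSO and 21.6 CPM with paclitaxel. Of the 33 genes 26 were below both DMSO libraries. MYC, a driver of growth and of S-phase entry, was at 256 and 252 CPM with DMSO and 166 CPM with paclitaxel (-0.62, interval -0.68 to -0.57), below both DMSO libraries, which lay close together. The cytosolic ribosomal protein genes, among the known MYC targets, had 69 of 74 ratios below 0, beside 51.8% of all genes, and a median of -0.16, none past 1.5-fold, and 56 were below both DMSO libraries. Ribosomal protein genes have many processed copies in the genome, so their counts are uncertain.

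NF-kB targets and cytokines held many of the larger differences. Of 30 members 9 were at least 1.5-fold higher and none lower, where 1.83% of all genes were higher and 0.397% lower. Of the 9, 8 were 1.5-fold above both DMSO libraries. The median was 0.26, with 24 members above 0, beside 48.2% of all genes. CSF1, the macrophage growth factor, was at 293 and 306 CPM with DMSO and 509.8 CPM with paclitaxel (0.80, interval 0.76 to 0.84). ICAM1, an adhesion molecule for leukocytes, was at 368 and 367 CPM with DMSO and 578 CPM with paclitaxel (0.65, interval 0.62 to 0.69). SOD2, the mitochondrial superoxide dismutase, was at 162 and 132 CPM with DMSO and 270.1 CPM with paclitaxel (0.73). CSF1 and ICAM1 had nearly equal levels in the DMSO libraries, and the paclitaxel library stood well above them.

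The interleukin-1 genes followed the same direction. IL1A was at 28.1 and 20.0 CPM with DMSO and 48.4 CPM with paclitaxel (0.78). IL1B was at 59.7 and 70.5 CPM with DMSO and 101 CPM with paclitaxel (0.75), which is 0.52 over replicate 2 and so under 1.5-fold there. BCL3, a nuclear NF-kB cofactor, had a ratio of 0.67, CSF3, the granulocyte growth factor, 0.59, and CXCL10, a T-cell chemokine with 2.20 CPM in DMSO replicate 1 and 6.26 CPM with paclitaxel, 1.32. All of these were above both DMSO libraries. IL8, the neutrophil chemokine now called CXCL8, was at 1212 and 554 CPM with DMSO and 1587 CPM with paclitaxel, a ratio of 0.39 against replicate 1 and 1.52 against replicate 2. IL6 was at 110.4 and 54.9 CPM with DMSO and 145 CPM with paclitaxel, 0.39 and 1.39. CSF3 was at 113.3 and 42.9 CPM with DMSO and 170.7 CPM with paclitaxel, and its ratio of replicate 2 over replicate 1 was -1.39. For IL8, IL6 and CSF3 the DMSO libraries were farther apart than paclitaxel was from replicate 1. The lowest members were NFKB1 (-0.20), LIF (-0.07), NFKBIZ (-0.06), CXCL3 (-0.04) and REL (-0.03), and the feedback inhibitor TNFAIP3 was at 64.5 and 73.3 CPM with DMSO and 64.2 CPM with paclitaxel.

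This list also differed between the vehicle libraries: its median was -0.31 in DMSO replicate 2 against replicate 1, and 0.70 in paclitaxel against replicate 2. CD14 was likewise lowest in replicate 2 and highest with paclitaxel, while PTPRC stayed at 11 reads or fewer in all 3 libraries. The part of the difference between the DMSO libraries in these values was not tested. Among the promoters of the 198 genes at least 1.5-fold higher, 145 were in the RefSeq table and 14 (9.66%) held the AP-1 motif TGANTCA on either strand, beside 4.17% of all. The genes with it included SLC43A2, TNFSF15, CXCL11 and IL1A. TNFSF15, a TNF family cytokine chosen after its values were seen, was at 148 and 164 CPM with DMSO and 282 CPM with paclitaxel (0.93). The CRE motif TGACGTCA stood in 2 of the 145 (1.38%), beside 3.52% of all.

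Glycolysis and hypoxia genes were mostly higher. Of 34 members 6 were at least 1.5-fold higher and none lower, beside 1.83% of all genes higher and 0.397% lower. Of the 6, 5 were 1.5-fold above both DMSO libraries. The median was 0.19, with 28 members above 0, beside 48.2% of all genes. After NDRG1 came ALDOC, a brain-type aldolase (1.16), EGLN3, an oxygen sensor (1.06), and PFKFB4, a regulator of glycolytic flux (1.02). CA12, a carbonic anhydrase (0.83), and SLC2A3, a glucose transporter (0.65), followed. CA12 was 0.25 over replicate 2 and so under 1.5-fold there. ALDOC had low counts, 61 reads in DMSO replicate 1 and 169 with paclitaxel. PFKFB4 was at 17.9 and 11.7 CPM with DMSO and 36.9 CPM with paclitaxel, interval 0.88 to 1.21. VEGFA, the angiogenic growth factor, was at 330 and 211 CPM with DMSO and 469.8 CPM with paclitaxel (0.51). Both stood above the DMSO libraries, with replicate 2 the lowest. The housekeeping enzymes of the pathway sat near equality, with GAPDH at 2529 and 2323 CPM with DMSO and 2472 CPM with paclitaxel (-0.03). HK2 (-0.14), PFKM (-0.13), GPI (-0.08), ADM (-0.06) and P4HA2 (-0.03) were the lowest. As with the cytokines, the list's median was -0.23 in DMSO replicate 2 against replicate 1, and the part of that difference in the result was not tested.

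**Figure D4:**
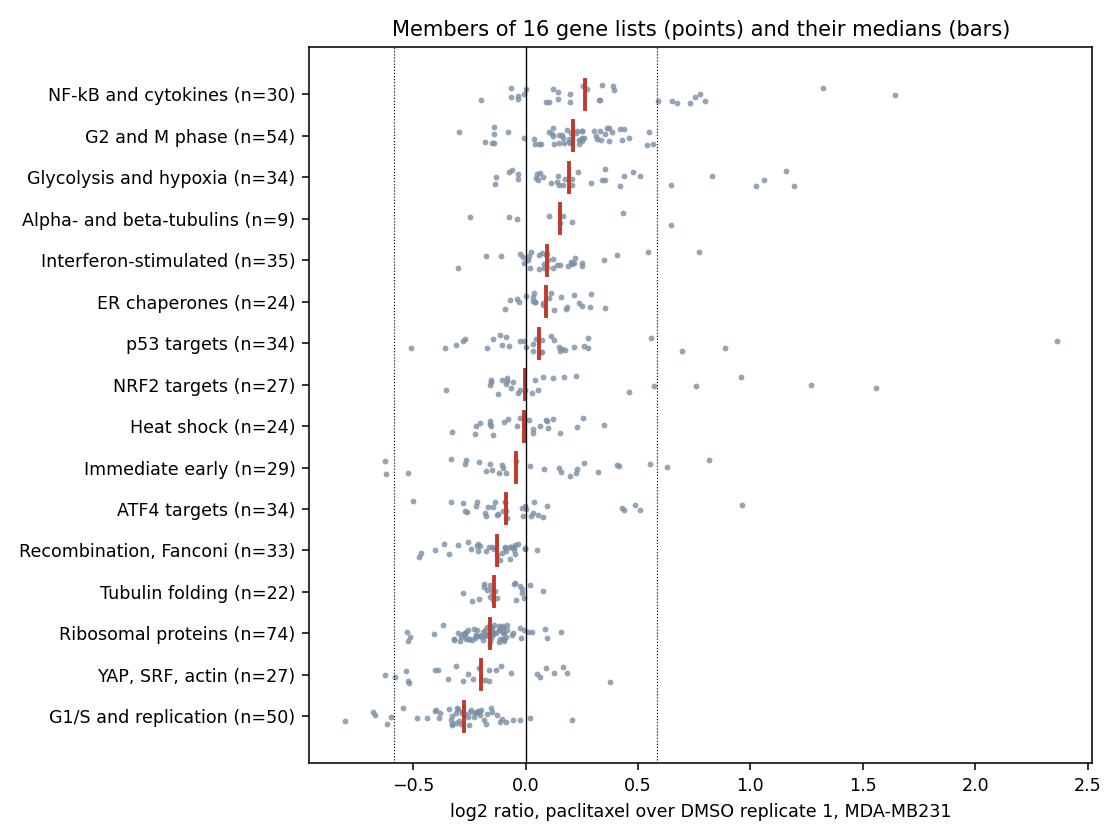
Each point is 1 gene of the list named on the left, placed by its log2 ratio of paclitaxel over DMSO replicate 1 in MDA-MB231; red bars are list medians, dotted lines mark 1.5-fold, and the vertical spread of points within a list has no meaning. The NF-kB, G2 and mitosis, and hypoxia medians (0.26, 0.21 and 0.19) lie right of 0 and the G1/S median (-0.28) left.

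The p53 target list had a median near that of all genes and a few members well above it. MDA-MB231 carries mutant p53. Of 34 members 3 were at least 1.5-fold higher, GDF15, CCNG2 and TP53INP1, beside 1.83% of all genes. None was lower, beside 0.397%, and the median was 0.06. CDKN1A, the CDK inhibitor p21, was at 150.04 and 105 CPM with DMSO and 157 CPM with paclitaxel (0.07). MDM2, the p53 ubiquitin ligase, was at 78.9 and 86.9 CPM with DMSO and 80.7 CPM with paclitaxel (0.03). CDKN1A was close to replicate 1, and MDM2 lay between the DMSO libraries. CCNG2, an atypical cyclin that FOXO factors also induce, was at 37.1 and 19.7 CPM with DMSO and 69.1 CPM with paclitaxel (0.89), and TP53INP1 at 13.02 and 7.95 CPM with DMSO and 21.4 CPM with paclitaxel (0.69). FAS (0.56) and DDB2 (0.28) came next, and PLK2 (-0.51), ZMAT3 (-0.36), GADD45A (-0.31), PPM1D (-0.28) and AEN (-0.27) were lowest. In the BCL2 family BMF alone of 15 members passed 1.5-fold, beside 1.83% of all genes higher and 0.397% lower. PMAIP1, MCL1 and BCL2L1 were at -0.02, -0.21 and -0.08, and BCL2L11 at -0.28.

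Among stress and detoxification genes, 4 of 27 NRF2 targets were at least 1.5-fold higher, beside 1.83% of all genes, while the list's median was -0.01. All 4 were so against both DMSO libraries, beside 1.4% of all genes. They were the aldo-keto reductases AKR1C1 (1.56), AKR1C3 (1.27) and AKR1B1 (0.76) and the transporter ABCC3 (0.96). AKR1B1, aldose reductase, was at 236 and 228 CPM with DMSO and 399.7 CPM with paclitaxel (interval 0.71 to 0.80), above both DMSO libraries. HMOX1 (-0.36), GCLC (-0.16) and GCLM (-0.15), which are textbook NRF2 targets, were the lowest, and NQO1 was at 0.12. AKR1C genes resemble each other closely, and reads placed in more than 1 of them were left out, so their levels are uncertain. Of 34 ATF4 targets 1 was at least 1.5-fold higher, a share near the 1.83% of all genes: DDIT4, an inhibitor of mTORC1, at 105 and 89.7 CPM with DMSO and 204.7 CPM with paclitaxel (0.96, interval 0.90 to 1.03). ASNS, TRIB3 and ATF4 itself were at 0.04, 0.08 and 0.09, DDIT3 at -0.26 and CHAC1 at -0.33 against replicate 1. Against replicate 2 they were at -1.16, -0.28, -0.04, -0.10 and -0.29 in that order. The ATF4 list's median was -0.09 against replicate 1 and -0.41 against replicate 2, and 22 of the 34 were below both DMSO libraries. The 24 heat shock genes had 12 ratios above 0 and 12 below, beside 48.2% and 51.8% of all genes. The ER chaperone list had 20 of 24 above 0, beside 48.2% of all genes, with a median of 0.09. None of the 24 was past 1.5-fold, where 1.83% of all genes were higher and 0.397% lower, and 6 were above both DMSO libraries.

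The immediate early genes showed no common direction. Of 29 members 2 were at least 1.5-fold higher and 2 lower, beside 1.83% and 0.397% of all genes, with a median of -0.04. FOS was at 2.83 and 2.59 CPM with DMSO and 5.37 CPM with paclitaxel (0.82, interval 0.51 to 1.35), from 72 and 152 reads against replicate 1. EGR1 was at 11.1 and 13.2 CPM with DMSO and 14.9 CPM with paclitaxel (0.40), and ATF3 at 7.12 and 6.87 CPM with DMSO and 6.36 CPM with paclitaxel (-0.15). FOS stood above both DMSO libraries at low counts, and ATF3 did not. IER5L, the other higher member (0.63), was below DMSO replicate 2 (-0.97). The 2 lower members were MYC and CTGF.

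Targets of YAP and SRF and genes of the actin cytoskeleton had 20 of 27 ratios below 0, beside 51.8% of all genes, and a median of -0.20. Of them 1, CTGF, was at least 1.5-fold lower, beside 0.397% of all genes. CYR61, a matrix protein and YAP target, was at 1523 and 1376 CPM with DMSO and 1059 CPM with paclitaxel (-0.52). ANKRD1, another YAP target, was at 945 and 1309 CPM with DMSO and 653 CPM with paclitaxel (-0.53). EDN1 (-0.58), F3 (-0.52) and TAGLN (-0.40) were close behind. CTGF, CYR61 and ANKRD1 were each below both DMSO libraries. RHOB (0.38), WWTR1 (0.18) and TPM2 (0.16) were the highest. YAP1 itself was at 354 and 367 CPM with DMSO and 369.8 CPM with paclitaxel (0.06). SNAI2, already given among the lowest ratios, and CTGF had U2OS ratios of 0.05 and 0.06.

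Interferon-stimulated genes had 29 of 35 ratios above 0, beside 48.2% of all genes, and a median of 0.10. Against replicate 2 the median was 0.05, and 19 of the 35 were above both DMSO libraries. In U2OS 21 of 28 were below 0, beside 6591 of all 11299 genes kept there, with a median of -0.18. In MDA-MB231 1 of the 35, ISG20, was at least 1.5-fold higher (0.77), a share near the 1.83% of all genes. Among drug transporters and the enzymes that metabolise paclitaxel, 2 of 11 kept genes were at least 1.5-fold higher and none lower, beside 1.83% and 0.397% of all genes. They were ABCC3, given above, and CYP1B1, at 14.3 and 33.7 CPM with DMSO and 30.1 CPM with paclitaxel, whose ratio was 1.05 against replicate 1 and -0.16 against replicate 2. ABCB1, the P-glycoprotein pump that expels paclitaxel, had 0 reads with paclitaxel and 1 read in DMSO replicate 1, so no ratio was formed. ABCC1 and ABCG2 were at -0.14 and -0.15 against replicate 1, and at -0.25 and -1.09 against replicate 2. Of the nuclear noncoding RNAs, MALAT1 and NEAT1 had MDA-MB231 ratios of 0.38 and 0.12 against replicate 1. Against replicate 2 the ratios were 0.68 and 1.31, and in U2OS they were 1.35 and 1.24. For NEAT1 the DMSO libraries of MDA-MB231 themselves differed, at 257 and 112 CPM.

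U2OS cells given the same dose for the same time share no library with this comparison. There, of 11299 genes kept, 93 (0.823%) were at least 1.5-fold higher and 33 (0.292%) lower, and 9 (0.0797%) and 1 (0.00885%) were so at 2-fold. Of the 198 genes higher in MDA-MB231, 130 were kept in both lines, and 82 of these (63.1%) had a U2OS ratio above 0, beside 41.2% of all genes kept in both. Of the 43 lower genes 36 were kept in both, and 24 (66.7%) had a U2OS ratio below 0, beside 58.8% of all. The U2OS medians were 0.04 for the higher genes and -0.18 for the lower genes, beside -0.03 for all. No gene was past 1.5-fold in opposite directions.

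The genes past 1.5-fold in both lines were few, and apart from CCNE2, FOS and TUBA1A they are named because of this result. Higher in both were ACSF2, CLEC2B, ETV1, FOS, MEGF6, NAV2, TROAP and TUBA1A, which are 6.15% of the 130 MDA-MB231 genes and 13.1% of the 61 U2OS genes in the shared set. TROAP, a spindle-associated protein, was at 71.1 and 48.8 CPM with DMSO and 113 CPM with paclitaxel in MDA-MB231, and at 76.9 and 137 CPM in U2OS. ETV1, an ETS transcription factor, was at 64.6 and 59.7 CPM with DMSO and 100.4 CPM with paclitaxel in MDA-MB231, and at 7.55 and 13.7 CPM in U2OS. Both were above every DMSO library of their line. NAV2, a large cytoskeletal protein, had a ratio of 0.66 against replicate 1 but 0.23 against replicate 2. CCNE2 was lower in both, at 37.0 CPM with DMSO and 23.6 CPM with paclitaxel in U2OS (-0.64).

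By list, the medians of the cell cycle genes had the same sign in both lines. The G2 and mitosis median was 0.21 in MDA-MB231 and 0.23 in U2OS. There 49 of 54 members were above 0, beside 4708 of all 11299 genes kept. AURKA, CENPA, PSRC1 and CCNB1 had U2OS ratios of 0.48, 0.30, 0.40 and 0.38. The G1/S median was -0.28 in MDA-MB231 and -0.15 in U2OS. In U2OS 45 of 50 were below 0, beside 6591 of all 11299 genes kept, and UNG and MCM6 were at -0.44 and -0.45. The NF-kB median was 0.26 in MDA-MB231 and 0.11 in U2OS, and CSF1, SOD2 and ICAM1 were at -0.06, 0.06 and 0.10 there. The hypoxia median was 0.19 and -0.03, with PFKFB4 and NDRG1 at 0.33 and 0.52 in U2OS. None of these differences between lines has a test.

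The other drugs given to MDA-MB231 cells share the DMSO libraries with paclitaxel, so their values are set side by side without a measure of overlap. Doxorubicin and etoposide are read against replicate 1, like paclitaxel, and MMS against replicate 2, whose title has its form. The standard deviation of ratios over the kept genes was 0.23 for paclitaxel, 0.91 for doxorubicin, 0.79 for etoposide and 0.51 for MMS. The G2 and mitosis median was 0.21 with paclitaxel and -1.36, -1.23 and -0.55 with doxorubicin, etoposide and MMS. CCNB1 was at 0.35 with paclitaxel and at -2.42, -2.21 and -0.83 with the other drugs in that order, and PLK1 at 0.31 against -2.90, -4.03 and -1.27. Of the 4 drugs, paclitaxel was the drug with a median above 0 in this list.

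The G1/S median was -0.28 with paclitaxel and -0.10, -0.34 and 0.12 with doxorubicin, etoposide and MMS, and CCNE2 was at -0.81 against 0.08, 1.12 and 0.79. The NF-kB median was 0.26 against -0.05, -0.72 and 0.08, with IL6 at 0.39 against 0.35, -1.95 and 0.71. The hypoxia median was 0.19 against 0.37, -0.09 and -0.12. GDF15 stood at 2.36 with paclitaxel and 0.37, 0.35 and 1.64 with the others. The stress genes ATF3 and EGR1 were at -0.15 and 0.40 with paclitaxel, while ATF3 was at 4.17, 2.97 and 3.63 and EGR1 at 4.37, 4.55 and 2.80 with the other drugs. CDKN1A was at 0.07 against 0.86, 2.74 and 1.53.

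**Figure D5:**
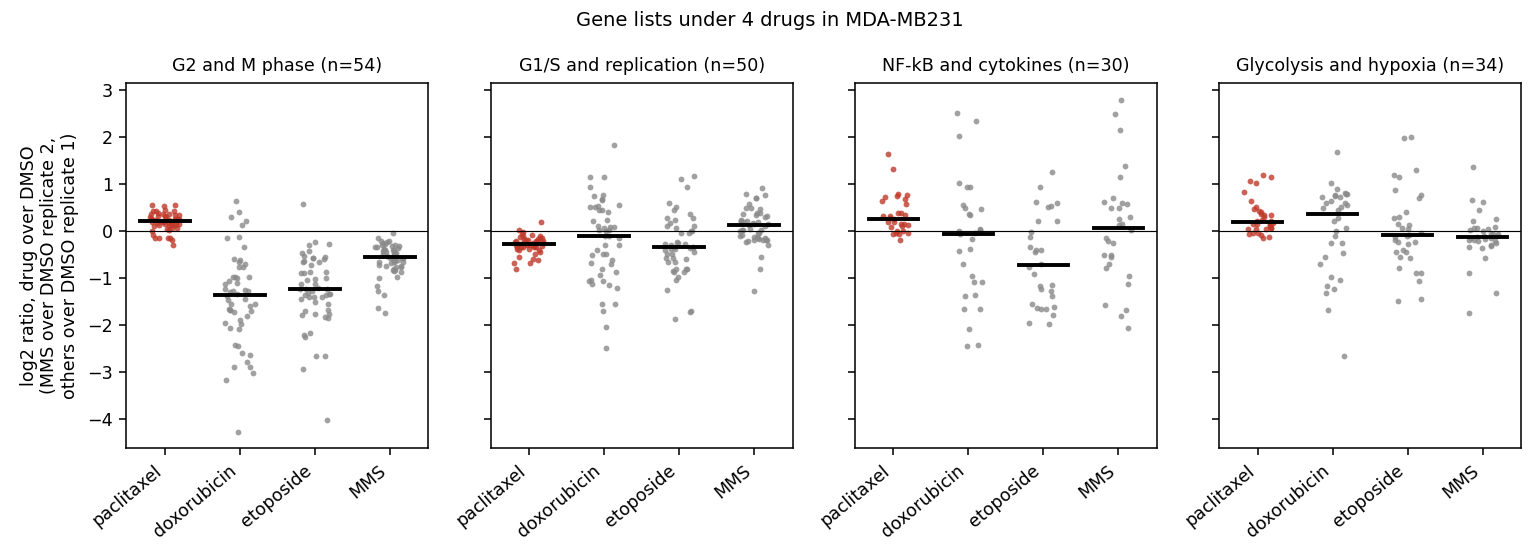
Log2 ratios over DMSO (vertical axis) of the genes in 4 lists under 4 drugs in MDA-MB231, with 1 point per gene, medians as black bars and sideways spread for legibility only. Paclitaxel, doxorubicin and etoposide use DMSO replicate 1 and MMS replicate 2. The G2 and mitosis genes sit at a median of 0.21 with paclitaxel and at -1.36, -1.23 and -0.55 with the other drugs.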

How the data were processed

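The authors deposited for each library the raw read counts of 23228 gene symbols, followed by 5 summary rows. Bases were called with CASAVA 1.8.2, alignment used TopHat2 2.0.8b and counting used HTSeq, per the submitters' processing notes, which name the builds hg19 and mm9. Whether counting used strand is not given in the sources used here; overlapping antisense genes therefore cannot be told apart. Summary rows were dropped (reads placed in several positions were 29.1% to 30.4% of reads in the 3 main libraries). Counts were scaled to CPM with TMM factors over all 11 libraries (edgeR 4.0.16, R 4.3.3), and log2 ratios were taken as described. Intervals are Clopper-Pearson 95% intervals of the ratio of read counts, formed without the added 0.5 CPM. The calculation was tested on simulated data. Alternatives were total counts, DESeq2 1.42.0 size factors, other added values and minimums, and the other DMSO library. The libraries and gene lists were chosen with earlier results of these data known. Genes named by rule are the 15 highest and 15 lowest with a larger CPM of at least 10, and all alpha- and beta-tubulins. The rule adds up to 5 highest and 5 lowest members of each list described. It also adds CCNB1, PLK1, CDC20, CDKN1A, MDM2, IL8, IL6, FOS, EGR1, ATF3, MYC, TTC5 and ABCB1. Cell type markers are named as well. Other list members, such as GAPDH, ASNS and TNFAIP3, fall outside this rule and are named as examples. Small and antisense RNAs, pseudogenes and placeholder names entered the counts only, except as stated. No 2 of the 3 main libraries agreed within sampling noise.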

Additional observations from a re-analysis of the deposited data

How the results depend on the processing

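No paired analysis was possible because paclitaxel has 1 library in this line. With 1 library a side, depth limits low genes: a gene at 5 CPM has at least 128 reads, and larger errors between cultures cannot be seen. Scaling by total counts or DESeq2 size factors kept all 55 genes of the lists and the named set that were past 1.5-fold past it, and moved the median of all genes to 0.00 or -0.01 from -0.01. Adding 0.1 CPM gave 4 genes 2-fold lower. Adding 2 CPM gave 25 genes 2-fold higher and 0 lower, 25 1.5-fold lower, 15 lower than both DMSO libraries, 5 higher in both lines and 3 G1/S genes lower, and 50 of the 55 genes stayed past 1.5-fold. With a minimum of 1 CPM the 2-fold counts were 91 higher and 6 lower, the 1.5-fold counts 377 and 104, the counts against both DMSO libraries 260 and 43, and those in both lines 30 and 4. With no minimum they were 94 and 7, 463 and 140, 299 and 48, and 39 and 5, and the tubulin median turned to -0.0074. With a minimum of 10 CPM, 33 genes were 2-fold higher and 0 lower, 28 were 1.5-fold lower and 5 were higher in both lines.

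The control library mattered most. Without DMSO replicate 1, that is against replicate 2, 274 genes were 2-fold higher and 122 lower, 853 and 574 were past 1.5-fold, and 40 and 5 were so in both lines. The tubulin median was 0.067. The G2 and mitosis median was 0.31 with 6 members 1.5-fold higher, the G1/S median -0.34 with 9 lower, the NF-kB median 0.70 with 16 higher, and the hypoxia median 0.39 with 14 higher and 1 lower. CYP1B1 (-0.16), IER5L (-0.97) and LTBP3 (-0.095) reversed, and 44 of the 55 genes stayed past 1.5-fold. Against the mean of both DMSO libraries the counts were 80 and 34 at 2-fold, 385 and 190 at 1.5-fold, and 19 and 3 in both lines. The tubulin median was then 0.057, 1 G2 and mitosis gene was 1.5-fold higher, the NF-kB median was 0.53 with 14 higher, 11 hypoxia genes were higher, IER5L was at -0.38, and 46 of the 55 genes stayed past 1.5-fold. The cause was not tested.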

Other observations

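Outside the lists set against the drug in the report, 2 of 41 kept members of a list of very long genes were at least 1.5-fold higher, beside 1.83% of all genes. They were NAV2, whose ratio was 0.66 against DMSO replicate 1 and 0.23 against replicate 2, and BCAS3, at 9.48 and 9.27 CPM with DMSO and 15.7 CPM with paclitaxel (0.70). The list's median was 0.09 with paclitaxel and -0.76, -0.82 and -0.53 with doxorubicin, etoposide and MMS. ID1, an inhibitor of differentiation induced by BMP signals, led the BMP and TGF-beta list at 18.2 and 16.6 CPM with DMSO and 27.4 CPM with paclitaxel (0.58), and TGFB2 was its lowest member (-0.35). Of 45 histone genes 4 passed the minimum, beside 10832 of all 23228 genes, with ratios between -0.05 and 0.39 against replicate 1. Their median was 0.13 against replicate 1 and 0.84 against replicate 2, and -0.70 in replicate 2 against replicate 1. The snoRNA host genes GAS5, SNHG8 and SNHG1 were at -0.47, -0.47 and -0.45. GAS5 was at 58.6 and 52.0 CPM with DMSO and 42.2 CPM with paclitaxel, and all 3 were below both DMSO libraries. The cystatins CST1 and CST4, chosen after their values were seen, were at 112.7 and 29.1 CPM in DMSO replicate 1, 46.0 and 15.8 CPM in replicate 2, and 229.6 and 62.6 CPM with paclitaxel.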
